A study of Mus musculus with 22 samples.

Results

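Mice labelled P301L, which by their name carry the tau responder alone, were compared with mice labelled rTta, which by their name carry the transactivator alone, in single-cell RNA counts of the hippocampus. The labels give only these genotype names and do not spell out the alleles. Every column of these animals with at least 300 counts was taken, whatever its cell type, which gave 7409 of the 27198 cells kept over the 22 animals of the series. Of these, 3249 came from 3 P301L animals and 4160 from 3 rTta animals. P301L replicate 1 was 48 weeks old, P301L replicates 2 and 3 were 41 weeks old, and the 3 rTta animals were 33 weeks old. All 6 carry the strain label Fvb/B6. No rTta animal had the age of a P301L animal, so genotype and age cannot be told apart in any result given here. Replicate numbers follow the order of deposit and pair no animals. The counts come from Drop-seq, in which a cell is caught in a droplet with a barcoded bead that primes the 3' ends of its RNA. The series also holds wild-type (WT) and rTg4510 animals. Cells of all 22 animals were clustered to define the classes and all 22 entered 1 alternative fit, and the 5 old WT animals, 32 to 40 weeks old, are used for levels.

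In rTg4510 mice the cDNA for human tau with a P301L substitution, a cause of frontotemporal dementia that speeds tau aggregation, sits behind a tetracycline operator. The operator drives the cDNA only where a tetracycline transactivator (tTA) is made, and tTA is under the Camk2a promoter, which is active in excitatory neurons of the forebrain. An animal with either transgene alone lacks the other component and serves as a control. Both transgenes are known to have damaged mouse genes where they inserted: tTA in a stretch of chromosome 12 with Vipr2, Wdr60, Esyt2, Ncapg2 and Ptprn2, and the tau responder in Fgf14 on chromosome 14. Insertions, the presence of tTA, age and any difference in genetic background cannot be told apart here.

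P301L replicate 3 and rTta replicate 3 shared 176 cell barcodes, whereas no other pair of the 22 animals shared more than 2. The shared barcodes made up 21.7% of the cells and 30.1% of the counts of P301L replicate 3, and 11.9% and 13.7% of rTta replicate 3. At the median, 74.8% of the counts of such a barcode were found in the same genes under the other animal, against 13.0% when barcodes were paired otherwise. These cells may therefore be deposited under both animals, and the main fits use all kept cells. Counts of calls per class are given without the shared barcodes of both as well, as are counts over the lists where they changed. The number of classes in which a gene was called is given without them, where it changed, for Hspa8 and genes called in 3 or more classes. For most other genes it is not given. It changed for some of these, such as Hspa1a, Hspa1b, Snap25, Syt1 and Junb, each called in 3 classes without the shared barcodes. Kept counts per animal ran from 731373 to 1510486 in P301L and from 1455887 to 1919893 in rTta, with medians of 638 to 814.5 counts per cell. P301L replicate 3 was the shallowest library. From markers, 6096 cells were placed in a class and 1313 (17.7%) were not. The summed markers of each class overlapped between the groups in that class. No doublet caller was run, and in 321 of the placed cells the markers of some other class had more counts than those of the cell's class.

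Mapt, the tau gene (chromosome 11, 104231390 to 104332090 on mm10), was read first. Levels are given as CPM, the counts of a gene scaled to all counts summed in an animal or in its class. Over all kept cells it stood at 603, 524 and 488 CPM in P301L replicates 1 to 3 and at 582, 572 and 459.5 CPM in rTta replicates 1 to 3. The groups overlapped, with a log2 difference of -0.00 ± 0.18 (SE, edgeR adjusted p = 0.99), and overlapped in excitatory neurons as well, at 531 ± 62.7 CPM (SD, n = 3) against 576 ± 71.1. Prnp encodes the prion protein, and parts of it flank tau in the responder; it stood at 982 ± 103 CPM in P301L and 1041 ± 115 in rTta, also overlapping. Counts of both genes can hold transgene reads.

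Of 4 genes tested at the tTA insertion, Wdr60 and Esyt2 were higher in P301L, with and without the shared barcodes. Wdr60, a component of the dynein motor of cilia (chromosome 12, 116206262 to 116263022), stood at 148, 87.4 and 58.8 CPM in P301L and at 46.9, 47.1 and 31.6 CPM in rTta. Every P301L animal lay above every rTta animal, with a log2 change of 1.23 ± 0.27 (adjusted p = 0.023) over all cells and 1.48 ± 0.29 (adjusted p = 0.02) in excitatory neurons. Esyt2, a tether between the endoplasmic reticulum and the plasma membrane (chromosome 12, 116281196 to 116391050), was higher by 1.06 ± 0.22 on the log2 scale (adjusted p = 0.015), at 56.1, 58.9 and 68.4 CPM against 23.4, 33.7 and 30.2. Old WT animals stood at 84.7 to 182 CPM for Wdr60 and 36.8 to 64.2 for Esyt2. Both calls over all cells were lost without some animals: Wdr60 kept a change of 1.07 to 1.34 but reached adjusted p values of 0.062 to 0.085 without P301L replicate 2 or any 1 rTta animal. Esyt2 stood at 0.91 to 1.18 with 0.052 to 0.069 without P301L replicate 2, rTta replicate 1 or rTta replicate 2. In excitatory neurons, Wdr60 fell to 1.03 (0.17) without P301L replicate 1, 1.42 (0.17) without rTta replicate 2 and 1.38 (0.085) without rTta replicate 3. Ncapg2 was too low for the test, at 9.36, 8.61 and 4.10 CPM in P301L and 2.08, 2.55 and 2.75 in rTta, and Vipr2 and Ptprn2 overlapped between the groups. Fgf14, a regulator of sodium channels at the axon initial segment (chromosome 14, 123977907 to 124677127), stood the other way. It was at 8.58, 7.28 and 16.4 CPM in P301L and 25, 21.6 and 19.2 in rTta, without overlap. Its log2 change was -1.16 ± 0.33 (adjusted p = 0.061), and -1.50 (adjusted p = 0.02) without the shared barcodes, when P301L replicate 3 stood at 5.86 CPM.

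Over all kept cells, 529 of 11609 genes tested differed at an adjusted p under 0.05 (edgeR quasi-likelihood test with Benjamini-Hochberg adjustment), 4.56% of those tested. Of these, 271 were higher in P301L and 258 were higher in rTta, and the median size of a called change was 1.02 on the log2 scale. Without the shared barcodes 577 of 11462 genes (5.03%) were called, 293 higher and 284 lower, and 497 genes were called in both fits with no change of sign. The animals did not overlap between the groups for 523 of the 529 called genes and for 23.9% of all genes tested. The number of calls moved with the animals in the fit, from 63 without P301L replicate 2 and 88 without rTta replicate 2 to 884 without P301L replicate 1, and a fit with all 22 animals called 16, of which 15 were among the 529. In whole-animal sums, fewer cells of a type and less RNA per cell cannot be told apart.

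Of the named increases in P301L, 9 that kept their call without each single animal and without the shared barcodes are given first. Hddc3, a metal-dependent hydrolase (chromosome 7, 80343104 to 80350547), stood at 51.5, 52.3 and 54.7 CPM in P301L and 8.33, 12.1 and 13.7 CPM in rTta. The 3 P301L animals were nearly level and far above every rTta animal, with a log2 change of 2.22 ± 0.25 (adjusted p = 0.00079). Eya2, a phosphatase and transcriptional coactivator (chromosome 2, 165595032 to 165771727), stood at 22.6, 15.2 and 23.2 CPM against 1.04, 1.91 and 2.06 (3.54 ± 0.44, adjusted p = 0.0016). Abhd1, of the alpha/beta hydrolase family, stood at 34.3, 33.1 and 26 CPM against 2.60, 2.55 and 4.81 (3.24 ± 0.34, adjusted p = 0.00079). For each of the 3 genes the range of the old WT animals, which lie in other libraries and in another part of the merged table, included the P301L animals, at 51.3 to 96.6, 5.90 to 36.1 and 22.1 to 48.4 CPM. The inducible chaperone Hspa1b stood at 529.5, 196 and 302 CPM against 39.1, 64.3 and 32.3 (2.91 ± 0.36, adjusted p = 0.0031), although the near-identical Hspa1a makes the split of reads between the pair uncertain. Gm1943, a predicted transcript, rose by 3.63, Ocel1 by 2.87, Hspb1 by 1.94, Axl, a receptor tyrosine kinase for Gas6, by 1.34, and H2-D1, a heavy chain of the major histocompatibility complex (MHC) class I, by 1.94 on the log2 scale. H2-D1 stood at 593, 1189.7 and 999 CPM against 209, 172 and 347, and its similarity to other class I genes leaves its reads uncertain.

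Other large increases lost their call in some fits that left out 1 animal. Serpina3n, a secreted protease inhibitor of reactive astrocytes, stood at 81.1, 299.9 and 91.6 CPM in P301L and 12.0, 22.9 and 26.1 in rTta. P301L replicate 2 was the highest by far, the groups did not overlap, and the change of 3.0 ± 0.62 (adjusted p = 0.049) left the threshold without P301L replicate 3 (3.24, adjusted p = 0.069), rTta replicate 1 (2.71, 0.2), rTta replicate 2 (3.10, 0.14) or rTta replicate 3 (3.21, 0.12). Col16a1, a collagen chain, rose by 2.09 ± 0.35 (adjusted p = 0.0057; 1.74 and 0.052 without P301L replicate 2). Gbp4, an interferon-inducible GTPase, rose by 2.47, and stood at 38.2, 62.9 and 12.3 CPM against 4.69, 7.64 and 9.62; its adjusted p was 0.066 without P301L replicate 2 and 0.066 and 0.072 without rTta replicates 1 and 2. The transcript 8430408G22Rik rose by 2.74 (adjusted p = 0.019), with adjusted p values of 0.051 to 0.095 without P301L replicate 2 or any rTta animal.

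Ndufs5, Snhg12 and Tsix led the named decreases in P301L that kept their call in each fit with 1 animal left out. Ndufs5, a subunit of respiratory complex I, stood at 5.46, 2.65 and 16.4 CPM in P301L and 60.9, 46.5 and 34.3 CPM in rTta (-2.81 ± 0.43, adjusted p = 0.0041). Snhg12, a noncoding host transcript of small nucleolar RNAs, stood at 10.9, 5.96 and 24.6 CPM against 58.9, 65.6 and 61.8 (-2.35 ± 0.33, adjusted p = 0.0021). Tsix, listed for the antisense partner of Xist, stood at 17.9, 17.2 and 45.1 CPM against 121, 108 and 98.9 (-2.16 ± 0.29, adjusted p = 0.0018), and without a stated use of strand its reads cannot be told apart from those of Xist. These 3 genes were called without each single animal and without the shared barcodes. The groups did not overlap, and in each of the 3 genes P301L replicate 3 stood highest among the P301L animals. Old WT animals ranged widely, from 5.86 to 82.0 CPM for Ndufs5, 6.28 to 61.5 for Snhg12 and 10.3 to 159 for Tsix.

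Pttg1, which encodes securin, the inhibitor of separase, stood at 13.3, 12.6 and 54.7 CPM in P301L and 125, 111 and 137 in rTta (-2.41 ± 0.43, adjusted p = 0.017). Without the shared barcodes P301L replicate 3 stood at 25.4 CPM, and the shared barcodes alone held 123 CPM. Fcrls, a microglial Fc receptor-like gene, stood at 18.7, 16.6 and 76.6 CPM against 145, 180.1 and 174 (-2.33 ± 0.50, adjusted p = 0.041), with 31.3 CPM in P301L replicate 3 without the shared barcodes and 182 in them. Both calls held without the shared barcodes, at -3.02 (adjusted p = 6.5e-05) for each. Pttg1 reached adjusted p values of 0.053 to 0.083 without P301L replicate 2 or any rTta animal, and Fcrls 0.085 to 0.15 without any of those or P301L replicate 1. Acp1 (-2.39), Hpgd (-2.15), Trpc5 (-2.43), Tnf (-2.13) and the uncharacterised 2610507I01Rik (-2.43) were also among the largest decreases, with Mkx (-1.90) and Fgf1 (-1.88). Among the 70 called genes named by rule over all cells, 52 lost the call without at least 1 animal, 51 of them without P301L replicate 2, 48 without rTta replicate 2 and 36 without rTta replicate 1, at changes of 0.61 to 3.24 or -2.52 to -0.60.

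**Figure D1:**
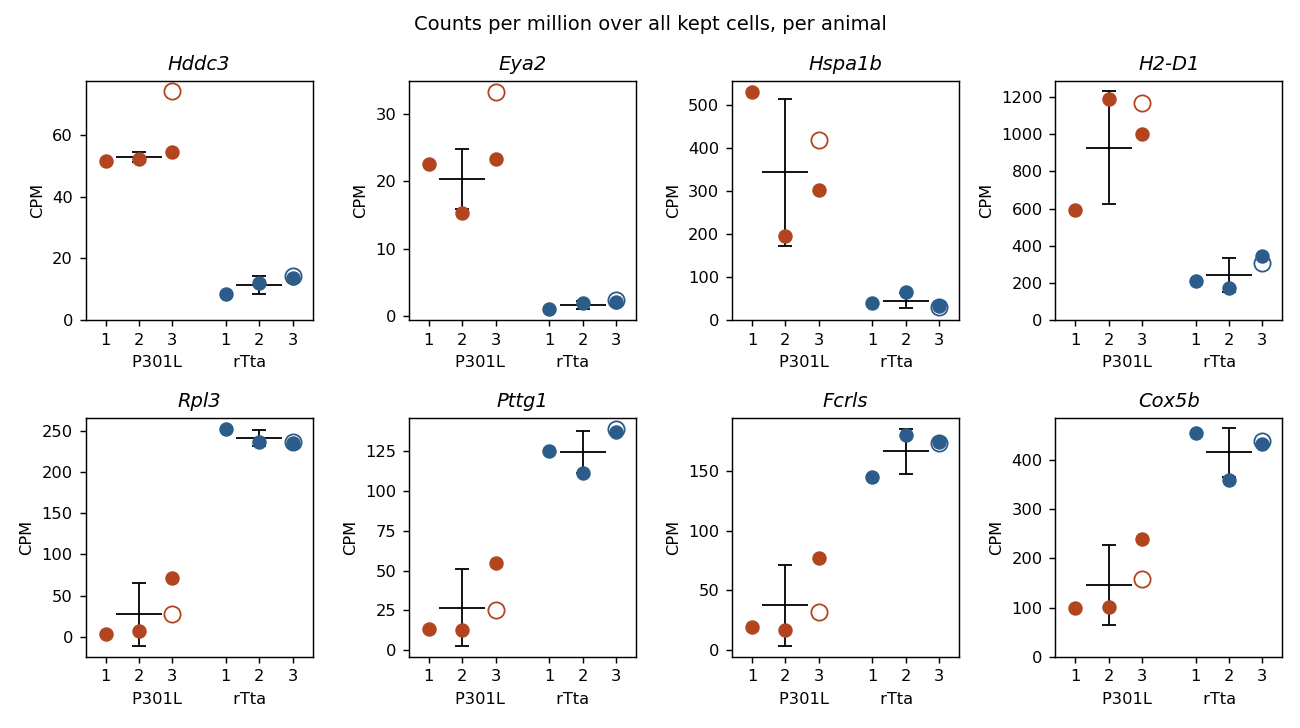
Level of 8 genes in each animal over all kept cells (CPM), for P301L and rTta. Filled points are all kept cells, open points are replicate 3 of each group without the shared barcodes, and lines with bars are the mean and SD of 3 animals. Hddc3 and Eya2 separate the groups with little spread, whereas for Rpl3, Pttg1 and Fcrls P301L replicate 3 lies above the other P301L animals and moves down without the shared barcodes.

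Several lists of genes with a shared function were read over all cells, where the median log2 change of all genes tested was 0.00 and 4.56% were called. Of 23 immediate early genes tested, which answer stimulation or dissociation within minutes, 8 were higher in P301L (Fos, Fosb, Jund, Nr4a1, Dusp1, Klf2, Klf4 and Klf6) and none was lower, with a median of 0.54 (7 higher without the shared barcodes). Fosb, an AP-1 subunit, stood at 406, 354 and 461 CPM against 195, 159 and 151, and Klf2 at 369, 376 and 435 CPM against 109.9, 87.2 and 188. Both genes separated the groups and kept their call without each animal. Jund, Dusp1, Nr4a1 and Klf4 lost theirs without P301L replicate 2 (adjusted p of 0.054 to 0.071) and without rTta replicate 2 (0.074 to 0.13). Of 15 heat shock chaperones, 4 were higher (Hspa1a, Hspa1b, Hspb1 and Dnajb1), with a median of 0.21, and 4 were higher and 1 lower without the shared barcodes. Dnajb1, the co-chaperone of inducible Hsp70, stood at 170.0, 159 and 176 CPM against 51.6, 75.7 and 74.2, a log2 change of 1.32 ± 0.19 (adjusted p = 0.0021).

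Of 15 antigen presentation genes, H2-D1, H2-K1 and Tapbp, which loads class I molecules, were higher and H2-DMa, which loads class II molecules, was lower, with a median of 0.72 (4 higher and 1 lower without the shared barcodes). Of 18 interferon response genes none was called at an adjusted p under 0.05, with a median of 0.19. In the brain ageing list Serpina3n, H2-K1 and H2-D1 were higher and Spp1 and Neurod1 lower among 21 tested, with a median of 0.17; Neurod1 lost its call without the shared barcodes (-1.18, adjusted p = 0.052). Of 11 reactive astrocyte genes Serpina3n and Hspb1 were higher, with a median of 0.70. Their summed level was 679, 2056 and 1181 CPM in P301L replicates 1 to 3 against 523, 492 and 694 in rTta, so that P301L replicate 1 lay below the highest rTta animal. Within astrocytes P301L replicate 2 alone stood apart, at 6860 CPM against 914 and 1116 in the other P301L animals and 822 to 894 in rTta, and none of the 4 tested there was called. In that class 0.297% of all genes tested were called. Of 21 genes of the myelin list Myrf, the transcription factor that switches on myelin genes, and Gal3st1, which makes sulfatide, were higher, with a median of 0.46. Mal2 of that list was lower. It was a leading gene of an excitatory neuron cluster, whereas Mal led the oligodendrocyte cluster. Myrf stood at 81.9, 70.2 and 60.2 CPM against 19.8, 32.5 and 15.1 (1.65 ± 0.25, adjusted p = 0.0034) and kept its call without each animal. Of 20 cholesterol synthesis genes none was called (median -0.22).

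The lists for synaptic vesicles and secretory granules had negative medians over all cells. Of 22 synaptic vesicle genes Syt1, Sv2b and Nsf were lower (median -0.30), and Nsf lost its call without the shared barcodes. Of 17 secretory granule genes Chgb, Pcsk2, Pam and Cck were lower (median -0.35), and Pcsk2 lost its call without the shared barcodes. Every called gene of these lists lost its call without P301L replicate 2 (adjusted p of 0.097 to 0.22). The same held without rTta replicate 2 (adjusted p of 0.064 to 0.21). The summed level of 16 excitatory neuron markers was 6209 to 9286 CPM in P301L and 9885 to 10839 CPM in rTta, without overlap, and 3 of the 16 were lower (Tbr1, Rtn1 and Cck), and 2 without the shared barcodes. That of 13 oligodendrocyte markers was 21138 to 29517 CPM in P301L and 12264 to 19515 in rTta, with none called and a median of 0.46. The part of these levels in the list results was not tested. Within excitatory neurons, none of 22 vesicle genes was called (median 0.02), and 1 of 21 was lower without the shared barcodes. Of all genes tested in that class, 0.567% were called with all cells and 2.44% without the shared barcodes. Over all cells, of 27 genes for microtubule proteins 1 was called (Tubb4a, higher, median -0.12), and of 29 tau kinases and phosphatases none was (median -0.03).

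The share of tested genes called over all cells lay between 2.81% on chromosome 13 and 6.12% on chromosome 4.

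Counts were then summed within 7 marker-defined classes and tested in each. With all kept cells, 356 of 22572 pairs of a gene and a class were called, 184 higher and 172 lower in P301L. They held 296 genes, of which 134 were called over all cells too. Only 36 genes were called in more than 1 class, of which 33 moved in a single direction, and 13 were called in 3 classes or more. The classes come from the same animals, so a shared direction is not an independent repeat.

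Rpl3, Rps2, Rps18 and Rpl35a, genes of ribosomal proteins, were each lower in P301L in at least 3 classes. Rpl3, a protein of the large ribosomal subunit, was called in 6 classes. In oligodendrocytes it stood at 0, 7.09 and 47.4 CPM in P301L and 268, 196 and 252 CPM in rTta (-3.95 ± 0.45, adjusted p = 1.6e-07), and in microglia at 17.7, 16.6 and 61.5 against 405, 275 and 209.6 (-3.32 ± 0.42, adjusted p = 3.6e-07). P301L replicate 3 was the highest of its group in both, and in oligodendrocytes it stood at 0 without the shared barcodes. Over all cells Rpl3 stood at 3.12, 6.62 and 71.1 CPM against 253, 237 and 236, where the spread in P301L left it uncalled (-3.48 ± 0.96, adjusted p = 0.13) until the shared barcodes were taken out (-4.73, adjusted p = 6.5e-05). Rps2, Rps18 and Rpl35a had the same pattern over all cells, at adjusted p values of 0.21, 0.22 and 0.11 with all cells and 0.0021, 0.00011 and 0.00015 without the shared barcodes. In the classes Rps2 was lower in 5 of 6 tested, Rps18 in 3 of 6 and Rpl35a in 3 of 5, and without the shared barcodes they were lower in 6, 6 and 5 classes. With 1 animal left out, Rpl3 lost its call in excitatory neurons and astrocytes, Rps2 in oligodendrocytes and microglia, and Rpl35a in oligodendrocytes. Old WT animals stood at 1.35 to 8.86 CPM for Rpl3, 4.88 to 8.52 for Rps18, 13.2 to 35.9 for Rps2 and 18.4 to 180.3 for Rpl35a. These genes have many near-identical processed pseudogenes, and how reads that match several copies were counted is not given in the sources used here.

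Most ribosomal genes did not follow them. Of 68 ribosomal protein genes tested over all cells Rpl18 was higher and Rps4y2 lower, with a median of 0.08, and 1 higher and 5 lower without the shared barcodes. In the classes 2 of 52 were lower in excitatory neurons, 2 of 40 in astrocytes, 4 of 45 in oligodendrocytes, 3 of 37 in precursors, 5 of 46 in microglia and 3 of 44 in endothelial cells, and none was higher. Of all genes tested there, 0.567, 0.297, 3.13, 1.05, 3.49 and 2.13% were called in the same order. Apart from Rps4y2 in excitatory neurons and Rplp1 in microglia, the called ribosomal genes were Rpl3, Rps2, Rps18 and Rpl35a. With the shared barcodes left out, the lower ones were 5 of 52, 4 of 39, 5 of 44, 3 of 37, 5 of 46 and 4 of 41 in the same order, and 2 were higher in microglia. The shares of all genes called were then 2.44, 1.7, 3.74, 1.19, 4.99 and 2.86%.

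Outside the ribosome, Cox5b, a subunit of respiratory complex IV, was lower in 5 classes. In oligodendrocytes it stood at 79.0, 88.6 and 207 CPM against 474, 379 and 403 (-1.83 ± 0.26, adjusted p = 3.1e-06), in microglia at 44.2, 38.8 and 123 against 290.3, 243 and 233 (-1.98 ± 0.36, adjusted p = 0.00024), and in endothelial cells at 63.1, 93.9 and 138 against 467, 377 and 427 (-2.05 ± 0.32, adjusted p = 0.00031). The groups did not overlap in any of the 3 classes, and these calls held without each animal. Atp1b1, the beta subunit of the sodium pump, was lower in 5 classes, Pttg1 in 4, Rab6b, a Golgi GTPase of neurons, in 3, Gria2, an AMPA receptor subunit, in 3 and Tsix in 3. Higher in 3 classes each were H2-D1 and Fosb. Of these calls, those of Tsix were each lost without at least 1 animal. Atp1b1 held without each animal in oligodendrocytes and microglia only, and Pttg1 in oligodendrocytes and endothelial cells only. Rab6b held so in microglia only, Gria2 in oligodendrocytes only and H2-D1 in endothelial cells only. With 1 animal left out, Fosb lost its call in endothelial cells, and Cox5b in astrocytes and precursors. Cox5b was lower in 6 classes, Pttg1 in 5 and Rab6b in 5 without the shared barcodes, and H2-D1 was higher in 5. Of 89 genes of oxidative phosphorylation tested over all cells, Cox5b and Ndufs5 alone were called (median 0.01). Over all cells Cox5b stood at 98.3, 101 and 239 CPM against 455, 359 and 432 (-1.54, adjusted p = 0.019), and at adjusted p values of 0.053 to 0.08 without P301L replicate 2 or any rTta animal.

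**Figure D2:**
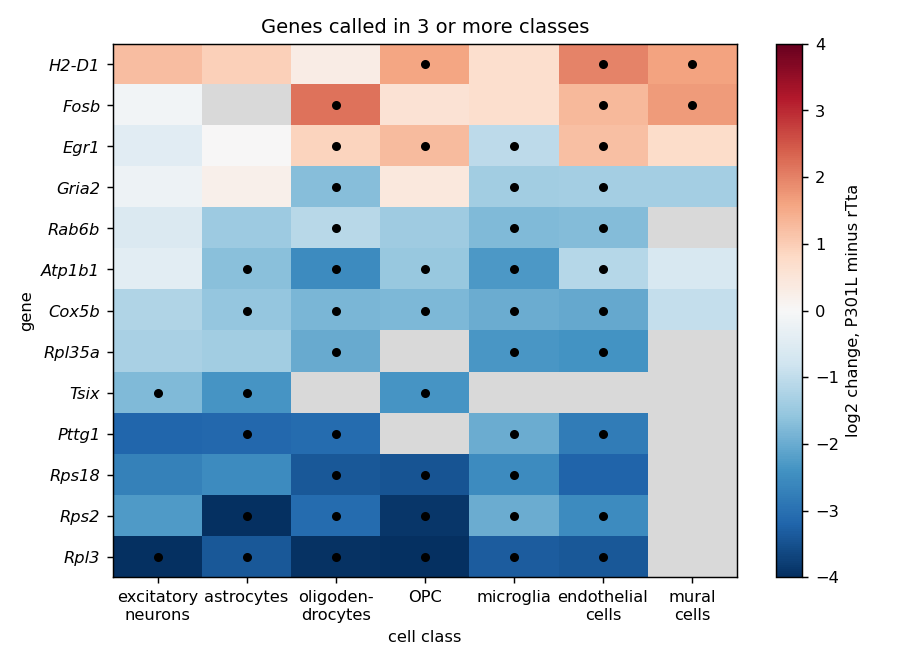
Log2 change (P301L minus rTta, colour) of the 13 genes called in 3 or more classes, by class. Dots mark called changes and grey marks a gene not tested in that class. Rpl3 was called in 6 of the 7 classes, always lower in P301L, and Egr1 is the gene of the 13 that was called in both directions.

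The immediate early genes called in endothelial cells and oligodendrocytes were all higher in P301L, and those called in microglia were mixed; the difference between classes was not tested. In endothelial cells 9 of 18 were higher in P301L and none lower (median 1.07; 10 higher without the shared barcodes), against 2.13% of all genes called there. Atf3, a stress-induced transcription factor, stood at 936, 751 and 1133 CPM in P301L and 234, 243 and 253 in rTta (2.01 ± 0.27, adjusted p = 4.9e-05). In oligodendrocytes 5 of 13 were higher (Fosb, Jun, Junb, Egr1 and Dusp1; median 0.90; 6 of 12 without the shared barcodes). There Fosb stood at 329, 323 and 290.2 CPM against 67.0, 80.9 and 58.2 (2.17 ± 0.27, adjusted p = 1.2e-07). Both Atf3 and oligodendrocyte Fosb separated the groups by a wide gap and held without each animal. Precursors had 2 of 11 higher (median 0.57) and mural cells 1 of 12 (median 0.91). Excitatory neurons had none of 17 called at an adjusted p under 0.05 (median -0.20), with 1 of 16 lower without the shared barcodes, and astrocytes none of 8 (median 0.04). Of all genes tested, 3.13% were called in oligodendrocytes, 1.05% in precursors, 0.754% in mural cells, 0.567% in excitatory neurons and 0.297% in astrocytes. No call among so few genes of the last 2 classes therefore lies near their shares.

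In microglia 5 of 19 immediate early genes were lower in P301L, namely Egr1, Ier2, Ier3, Junb and Zfp36, and Klf2 and Klf4 were higher (median 0.07; 3 higher and 5 lower without the shared barcodes). Of all genes tested there, 3.49% were called. Zfp36, which destabilises cytokine messengers, stood at 981, 881 and 1332 CPM against 2733, 2651 and 2577 (-1.29 ± 0.21, adjusted p = 4.8e-05), and Ier3 at 256, 177 and 348 against 1022, 862 and 590.0 (-1.67 ± 0.26, adjusted p = 1.6e-05). Klf2, a transcription factor that restrains inflammatory genes, stood at 601, 260.3 and 471 CPM against 151, 115 and 155 (1.66 ± 0.30, adjusted p = 0.00021). A cluster of microglia led by the cytokine genes Ccl4, Ccl3, Il1b and Tnf made up 31.7, 25.1 and 29.5% of the microglia of P301L replicates 1 to 3 and 45.7, 34.4 and 31.9% of those of rTta replicates 1 to 3. Without that cluster all 5 decreases lost their call, at -0.27 for Zfp36 (adjusted p = 0.74), -0.57 for Ier3 (0.60), -0.32 for Junb (0.58), -0.16 for Egr1 (0.89) and -0.12 for Ier2 (0.94), whereas Klf2 stood at 2.09 and stayed called. Without P301L replicate 2, Egr1 (-0.86, adjusted p = 0.079), Junb (-0.77, 0.092) and Ier2 (-0.83, 0.14) lost the call too, and Ier2 also without rTta replicate 2 (-0.91, 0.076).

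Egr1, a zinc finger factor, was higher in oligodendrocytes, precursors and endothelial cells and lower in microglia. In oligodendrocytes it stood at 439, 581 and 349 CPM against 227, 277 and 233 (0.90 ± 0.21), in precursors at 1181, 686 and 987 against 465, 391 and 351 (1.27 ± 0.29), and in endothelial cells at 1388, 691 and 942 against 467, 353 and 540.1 (1.19 ± 0.28). In microglia it stood at 1432, 787 and 1066 CPM against 2957, 2255 and 1762 (-1.06 ± 0.23). In none of the 4 classes did the groups overlap. The call in oligodendrocytes was lost without P301L replicate 2 (0.68, adjusted p = 0.2). That in precursors was lost without P301L replicate 1 (0.96, 0.081), rTta replicate 2 (1.21, 0.063) or rTta replicate 3 (1.17, 0.13), and that in endothelial cells without P301L replicate 1 (0.88, 0.099), rTta replicate 1 (1.22, 0.093) or rTta replicate 2 (1.06, 0.14).

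Chaperones were called in 5 classes. In endothelial cells Hspa1a, Hspb1 and Dnajb1 were higher and Hspa8, the constitutive Hsp70, was lower among 13 tested. Hspb1, a small heat shock protein, stood at 1935, 912 and 1578 CPM against 641, 632 and 383 (1.48 ± 0.29, adjusted p = 0.0044). Hspa8 stood at 10.5, 5.52 and 127 CPM against 716, 474 and 645 in endothelial cells and at 23.9, 0 and 123 against 609, 593 and 468 in precursors (-4.16 ± 0.52, adjusted p = 2.7e-07), without overlap in either class. Its change in all classes tested was -4.16 to -2.35, called in these 2 with all cells and in all 7 classes without the shared barcodes, lower in each. In endothelial cells it missed the threshold without rTta replicate 3 (-3.83, adjusted p = 0.053). Hspa8 has near-identical copies, and its reads are uncertain for the same reason as those of Rpl3. In oligodendrocytes Dnajb1 (359.8, 369 and 243 CPM against 56.7, 76.6 and 136) and Hspa5, the endoplasmic reticulum chaperone BiP, were higher among 14 (4 higher and 1 lower without the shared barcodes). Hspa1b was higher in microglia among 13, Hspb1 in mural cells among 9 (2 without the shared barcodes), and Hspa1a in precursors among 12.

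**Figure D3:**
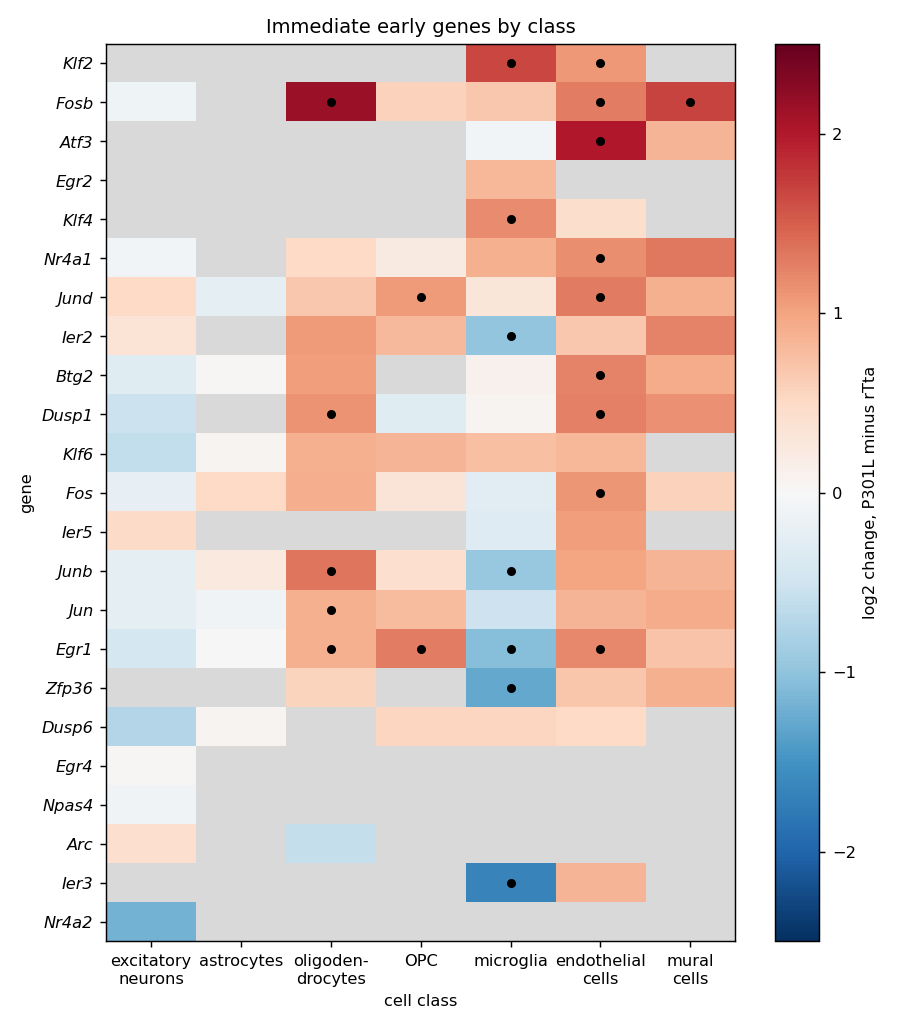
Log2 change (P301L minus rTta, colour) of immediate early genes by class. Dots mark called changes and grey marks genes not tested in that class. The 9 called genes of endothelial cells are all higher in P301L, whereas 5 of the 7 called in microglia are lower.

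Oligodendrocytes, the myelin-forming cells, held 125 calls among 3998 genes (3.13%), 65 higher and 60 lower, and 143 of 3821 (3.74%) without the shared barcodes, with 115 called in both. Their largest increase was in Fcho1, an adaptor of clathrin-mediated endocytosis, at 316, 383 and 225 CPM in P301L and 10.3, 0 and 4.85 in rTta. The 218 counts in P301L against 3 in rTta give a ratio of 68.0 (exact 95% interval 22.9 to 332, for counting error alone), and old WT animals stood at 161 to 248 CPM. Eya2 had 62 counts against 2, a ratio of 29.0 (7.69 to 245), and Dlk2, a noncanonical Notch ligand, 51 against 3, a ratio of 15.9 (5.14 to 79.6). Rnase4, a secreted ribonuclease, stood at 224, 174 and 142 CPM against 5.16, 17.0 and 19.4 (3.62 ± 0.41, adjusted p = 1.3e-08). Serpina3n was at 189, 397 and 219 CPM against 0, 21.3 and 53.4 (3.40 ± 0.51, adjusted p = 0.00087). All 5 genes stood apart between the groups and held their call without each animal.

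Among abundant oligodendrocyte genes, Apod, a lipid carrier, stood at 2896, 3789 and 4803 CPM in P301L and 6399.5, 6672 and 7015 in rTta (-0.82 ± 0.17, adjusted p = 0.0016). Gatm, the first enzyme of creatine synthesis, stood at 2049, 1538 and 2434 CPM against 3687, 3989.6 and 3663 (-0.93 ± 0.17, adjusted p = 0.00028). Both decreases were seen without overlap and held without each animal. Of 20 myelin genes tested in this class Myrf was the called member, at 231 to 426 CPM against 102 to 192 (1.07 ± 0.25, adjusted p = 0.0066; 0.81 and 0.12 without P301L replicate 1). Il33, a nuclear alarmin of these cells, fell by 0.65 on the log2 scale (adjusted p = 0.018; 0.09 to 0.11 without P301L replicate 2, rTta replicate 2 or rTta replicate 3). Of 35 named called genes in this class 18 lost the call without at least 1 animal, 12 of them without P301L replicate 2, at changes of 0.67 to 1.89 or -3.13 to -0.57.

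Gatm moved the other way in microglia, at 1494, 1778 and 1127 CPM in P301L against 333, 153 and 264 in rTta (2.59 ± 0.24, adjusted p = 1.7e-10). Old WT animals stood at 816 to 1293 CPM in microglia and 1151 to 1676 in oligodendrocytes. In microglia, the resident macrophages of the brain, 102 of 2926 genes (3.49%) were called, 49 higher and 53 lower, and 133 of 2666 (4.99%) without the shared barcodes, with 99 in both. Fcrls fell most among their own markers, at 212, 138 and 523 CPM against 1633, 1744 and 1817 (-2.61 ± 0.36, adjusted p = 0.00074), and old WT animals stood at 180.4 to 528. Without the shared barcodes P301L replicate 3 stood at 214 CPM. Of 20 homeostatic microglia genes Fcrls alone was called (median 0.10), and of 18 disease-associated genes Ctsl, a lysosomal protease, was the called one, and lower (-0.97, adjusted p = 0.0055; -0.90 and 0.091 without P301L replicate 2). In the fit without the shared barcodes 2 of 17 disease-associated genes were higher and 1 was lower.

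Hebp1, a heme-binding protein, stood in microglia at 336, 388 and 225 CPM against 42.3, 51.1 and 62.1 (2.67 ± 0.34, adjusted p = 3.6e-07). Qpct, which forms N-terminal pyroglutamate on peptides, stood at 133, 183 and 102 CPM against 18.1, 12.8 and 15.5 (3.19 ± 0.49, adjusted p = 1.7e-05). Without the shared barcodes Qpct was called in 2 classes, higher in 1 of them and lower in the other. Ccdc80 had 48 counts in P301L against 3 in rTta, a ratio of 18.4 (5.94 to 92.5). H2-DMa was at 35.4, 38.8 and 92.2 CPM against 187, 256 and 217 (-2.03 ± 0.38, adjusted p = 0.00031), and Gadd45b, a stress-response gene, at 35.4, 49.9 and 41.0 against 363, 243 and 225 (-2.63 ± 0.37, adjusted p = 3.8e-06). These 5 genes, Fcrls and Gatm separated the groups and kept their call without each animal. Without the cytokine-led cluster 54 of 1443 genes tested were called, among them Gatm, Fcrls, Hebp1 and H2-DMa. Of the 102 calls with all microglia, 58 were tested there and 42 of them were called. Gadd45b was not tested. Of 34 named called genes 17 lost the call without at least 1 animal, 12 of them without P301L replicate 2, at changes of 0.89 to 2.42 or -2.72 to -0.70.

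Endothelial cells, which line the vessels, held 52 calls among 2447 genes (2.13%), 30 higher and 22 lower, and 63 of 2204 (2.86%) without the shared barcodes, with all 52 in both. H2-D1 stood at 5699, 7442 and 4754 CPM in P301L against 1492, 1325 and 1934 in rTta (1.98 ± 0.28, adjusted p = 8.9e-05). H2-K1 and Psmb8, a subunit of the immunoproteasome, were also higher among 10 antigen presentation genes (median 0.89). H2-K1 stood at 2103, 2823 and 1578 CPM against 1206, 888 and 1211, and Psmb8 at 442, 674 and 381 against 181, 207 and 270.0. Old WT animals spanned both groups for H2-D1, from 996 to 10754 CPM. Psmb8 lost its call without P301L replicate 2 (0.98, adjusted p = 0.21), rTta replicate 1 (1.15, 0.14) or rTta replicate 2 (1.25, 0.068). H2-K1 lost its call without P301L replicate 2 (0.81, adjusted p = 0.25) or any 1 rTta animal (0.92 to 1.13, 0.053 to 0.29). Of 19 blood-brain barrier genes none was called here, whereas Slc2a1, Slco1c1 and Slc16a1, carriers for glucose, thyroid hormone and lactate, were higher over all cells among 20 (4 without the shared barcodes), with Slc2a1 at an adjusted p of 0.048 with all cells and 0.053 without the shared barcodes.

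Gsta4, a glutathione transferase that detoxifies lipid aldehydes, stood in endothelial cells at 31.5, 22.1 and 42.4 CPM against 316, 401 and 287 (-3.35 ± 0.40, adjusted p = 1.2e-05). Pmaip1, the apoptosis gene Noxa, stood at 326, 271 and 201 CPM against 75.4, 60.8 and 34.8 (2.26 ± 0.38, adjusted p = 0.00071). Nxpe4 was at 0, 0 and 42.4 CPM against 136, 243 and 166, with P301L replicate 3 at 12.7 without the shared barcodes. The groups did not overlap for any of the 3 genes, and their calls held without each animal, as did those of H2-D1, Atf3, Hspb1 and Cox5b. Of 29 named called genes 17 lost the call without at least 1 animal, 12 of them without rTta replicate 1, at changes of 0.81 to 2.45 or -3.83 to -1.0. Under DESeq2 the split of endothelial calls was 28 higher and 7 lower.

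Oligodendrocyte precursors, the dividing cells that give rise to oligodendrocytes, held 20 calls among 1913 genes (1.05%), and 23 of 1928 (1.19%) without the shared barcodes, with all 20 in both. Gtl3, known as a protein of cilia, stood at 597, 483 and 432 CPM against 40.1, 26.9 and 43.8 (3.79 ± 0.43, adjusted p = 1.7e-09). Pak4, a kinase of the cytoskeleton, stood at 251, 319 and 339 CPM against 104, 40.4 and 43.8 (2.13 ± 0.42, adjusted p = 0.00066), and Snhg11, a neuronal noncoding transcript, at 59.7, 38.7 and 61.7 against 305, 269 and 482 (-2.69 ± 0.45, adjusted p = 3.6e-05). These 3 genes stood apart and held without each animal. Rpl3 had 64 counts in rTta against 2 in P301L, a ratio of 26.3 (6.99 to 222). Of 15 named called genes 8 lost the call without at least 1 animal, at 0.81 to 2.59 or -2.43 to -1.25, and 6 of these did so without P301L replicate 1 and 6 without rTta replicate 3.

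Astrocytes held 9 calls among 3035 genes (0.297%), 2 higher and 7 lower, and 50 of 2933 (1.7%) without the shared barcodes, with all 9 in both. Col16a1 stood at 269, 204 and 103 CPM against 40.7, 21.3 and 27.8 (2.74 ± 0.42, adjusted p = 0.0011). Rps2 had 85 counts in rTta against 2 in P301L, a ratio of 35.0 (9.39 to 293). These were the 2 calls that held without each animal. Zfp949, a zinc finger gene, had 54 counts in P301L against 3 in rTta, a ratio of 21.9 (7.10 to 109), of which P301L replicate 1 stood at 248 CPM and the others at 71.3 and 73.4; its change was 3.41 (adjusted p = 0.33) without that animal, 3.75 (0.099) without rTta replicate 1 and 3.71 (0.11) without rTta replicate 3. Aldh1a1, which makes retinoic acid, stood at 14.2, 20.4 and 44.1 CPM against 110.3, 177 and 189 (-2.73 ± 0.48, adjusted p = 0.004; -2.59 and 0.058 without rTta replicate 3). Of 20 homeostatic astrocyte genes none was called in this class, and 1 was higher without the shared barcodes.

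Excitatory neurons held 43 calls among 7590 genes (0.567%), 23 higher and 20 lower, and 175 of 7182 (2.44%) without the shared barcodes, with 40 in both. Without rTta replicate 2 edgeR called 0 genes at an adjusted p under 0.05, with 763 at an unadjusted p under 0.05, so each named gene of this class lost its call without at least that animal. Robo3, an axon guidance receptor, stood at 81.1, 67.5 and 46.6 CPM against 12.7, 11.7 and 8.76 (2.57 ± 0.36, adjusted p = 0.0027; 2.59 and 0.061 without rTta replicate 2), without overlap. It was the largest increase of the class and held in each fit that left out another animal. Lpl, lipoprotein lipase, stood at 149, 148 and 54.4 CPM against 52.1, 28.3 and 28.5 (1.75 ± 0.32, adjusted p = 0.018), and at 1.59 to 1.62 with adjusted p values of 0.061 to 0.14 without P301L replicate 1, P301L replicate 2, rTta replicate 2 or rTta replicate 3. Gabra2, a GABA-A receptor subunit, stood at 429, 218 and 241 CPM against 154, 149.9 and 131 (1.06 ± 0.24, adjusted p = 0.049), and was called without the shared barcodes at 1.23 (adjusted p = 0.0038). P301L replicate 1 was the highest animal for all 3 genes, and without it Gabra2 stood at 0.62 (adjusted p = 0.28).

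Among the neuronal decreases, Ndufs5 stood at 8.54, 2.60 and 7.77 CPM against 57.8, 41.6 and 32.9, Snhg12 at 12.8, 10.4 and 23.3 against 71.7, 79.9 and 56.9, and Rpl3 at 4.27, 2.60 and 77.7 against 234, 238 and 212. The groups did not overlap, and P301L replicate 3 stood apart from its group in Rpl3 alone. A cluster of low counts made up 41.6, 23.6 and 27.0% of the excitatory neurons of P301L replicates 1 to 3 and 32.3, 15.7 and 22.3% of those of rTta replicates 1 to 3. Without it 27 genes were called. P301L replicate 3 gave 74 excitatory neurons, the fewest. Over the 14 named called genes, leaving out 1 animal gave changes of 0.62 to 2.59 or -4.05 to -1.61 where the call was lost, and this was so for 14 genes without rTta replicate 2, 10 without P301L replicate 1 and 10 without rTta replicate 3. Mural cells, the contractile cells of vessel walls, held 5 calls among 663 genes (0.754%), and 7 of 679 (1.03%) without the shared barcodes, with all 5 in both. Fosb stood there at 1595, 1728 and 1546 CPM against 444, 515 and 572 (1.69 ± 0.28, adjusted p = 0.0033) and was the call that held without each animal. H2-D1, Hspb1 and Abcc9, a subunit of a potassium channel, were higher and Pcp4l1 lower, and all 4 lost the call without P301L replicate 2, at 1.39, 1.51, 1.10 and -1.58. Interneurons were not tested, since P301L replicates 2 and 3 gave 15 and 6 of them.

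Some neuronal transcripts were lower in P301L in oligodendrocytes and microglia. In oligodendrocytes Snap25, a fusion protein of synaptic vesicles, stood at 43.9, 35.4 and 71.1 CPM against 191, 123 and 325 (-2.14 ± 0.34, adjusted p = 3e-05), and Syt1, the calcium sensor of release, at 74.6, 31.9 and 59.2 against 217, 115 and 213 (-1.75 ± 0.33, adjusted p = 0.00038). Both genes stood apart and held without each animal. The sum of the 16 excitatory neuron markers in oligodendrocytes was 1163 to 1321 CPM in P301L and 1801 to 2615 in rTta, and 5 of the 10 tested were lower (Nrgn, Chn1, Snap25, Rtn1 and Cck). In microglia the sum was 1476 to 2388 CPM against 2651 to 3245 with 2 of 8 lower (3 without the shared barcodes), and in precursors 2566 to 3022 against 3093 to 4689 with none of 8 called, both without overlap. The ranges overlapped in endothelial cells (2276 to 2534 CPM against 2396 to 3805, with 1 of 8 lower) and in astrocytes (1686 to 3319 against 2909 to 3702, with none of 9 called, and 2 lower without the shared barcodes). In excitatory neurons themselves the sum was 17476 to 19833 CPM against 18463 to 18897, with none of 16 called, and 1 higher and 1 lower without the shared barcodes. Of all genes tested, 3.13% were called in oligodendrocytes, 3.49% in microglia and 2.13% in endothelial cells. In precursors, excitatory neurons and astrocytes the shares were 1.05, 0.567 and 0.297%. Excitatory neurons made up 21 to 25.3% of the cells in rTta and 9.11 to 21.3% in P301L. The part of neuronal RNA in glial droplets in the calls of Atp1b1, Rab6b, Gria2, Snap25, Syt1, Cck, Snhg11 and Chgb in glia and vessels was not tested.

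**Figure D4:**
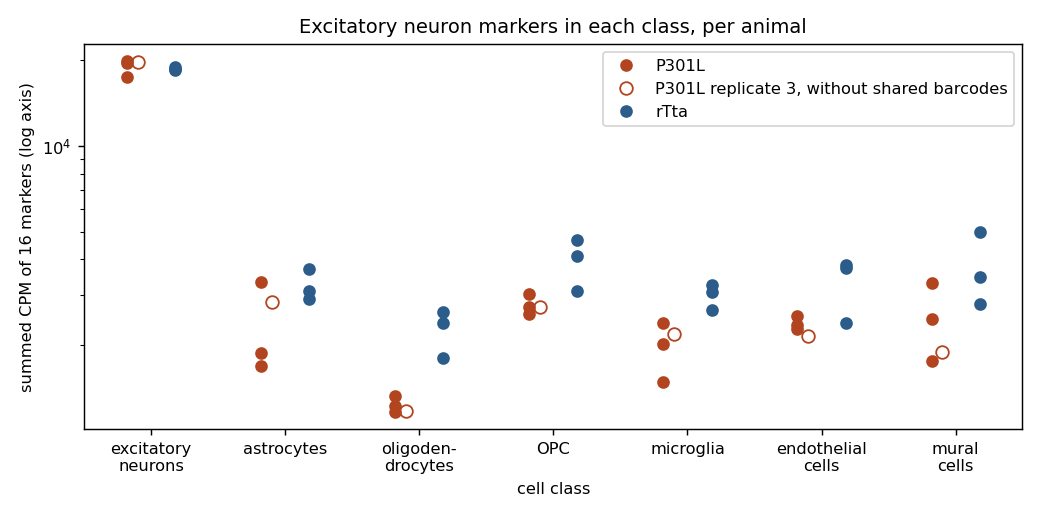
Summed level of 16 excitatory neuron markers in each class and animal (CPM, log axis), for P301L and rTta, with open points for P301L replicate 3 without the shared barcodes. In oligodendrocytes the 3 P301L animals lie at 1163 to 1321 CPM, below the rTta animals at 1801 to 2615 CPM.

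In all, 801 of the 13685 genes of the deposited table had counts in these 6 animals alone, and 114 of them passed the filter over all cells. They were of low level, with a median of 2.93 CPM over the genes against 33.6 for genes counted in all 22 animals, and took 0.296 to 0.367% of an animal's counts. Of the 114, 7 (6.14%) were called, against 4.56% of all genes tested. Depdc7, Klk6 and Niacr1 were higher and 2610507I01Rik, Ms4a6b, Spp1 and Syce2 lower, and 13 of 99 were called without the shared barcodes. Klk6, a serine protease of oligodendrocytes, stood at 17.2, 46.3 and 10.9 CPM against 3.65, 5.73 and 4.81 (2.48 ± 0.49, adjusted p = 0.014), with P301L replicate 2 the highest and a change of 1.62 (adjusted p = 0.11) without it, 2.30 (0.067) without rTta replicate 1 and 2.63 (0.063) without rTta replicate 2. Spp1, which encodes osteopontin, stood at 4.68, 4.63 and 2.73 CPM against 14.6, 11.5 and 30.2 (-2.12 ± 0.46, adjusted p = 0.02), and at -2.21 (0.099) without P301L replicate 2 and -1.63 (0.059) without rTta replicate 3.

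Niacr1, the niacin receptor, rose in microglia, at 194, 105 and 123 CPM against 24.2, 12.8 and 7.76 (3.12 ± 0.51, adjusted p = 4.8e-05). The groups did not overlap, and the call held without each animal. The 10 most abundant of the 801 were Lyz2, Fcgr2b, 2610507I01Rik, Pik3cg, Plcg2, Fes, Zfp563, Clec2d, H2-Aa and H2-DMb1, of which 2610507I01Rik alone was called. Lyz2, the lysozyme of myeloid cells, stood at 3.90, 21.2 and 62.9 CPM against 36.5, 26.1 and 26.1, and H2-Aa, an MHC class II chain, at 0, 19.9 and 38.3 against 4.69, 7.64 and 20.6. Both were more variable among the P301L animals than between the groups.

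The makeup of the libraries differed by class, with shares over all kept cells and exact two-sided permutation tests over 3 against 3 animals, which cannot go below a p of 0.10. Oligodendrocytes made up 16.2, 17.3 and 15.5% of the cells of P301L replicates 1 to 3 and 10.3, 11.9 and 11.5% of those of rTta (exact p = 0.1, adjusted p = 0.3 over 9 shares). Microglia made up 13.1, 19.1 and 16.3% against 11.3, 12.5 and 9.57%, and endothelial cells 10.4, 14.8 and 14.5% against 10.2, 7.14 and 9.77%, each with the same exact p and adjusted p. In these 3 classes every P301L animal lay above every rTta animal. Excitatory neurons made up 21.3, 12.8 and 9.11% against 25.3, 21.7 and 21%, where P301L replicate 1 lay above rTta replicate 3 (exact p = 0.2, adjusted p = 0.36). Without the shared barcodes P301L replicate 3 held 5.03% excitatory neurons, 16.4% oligodendrocytes, 17.9% microglia and 16% endothelial cells, and these 4 exact p values were unchanged. The remaining shares overlapped between the groups, and a share reads dissociation and capture as well as the tissue.

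How far each animal stood with its group was read from genes called without it, placing its log2 CPM between the means of the other animals, at 0 for the rTta mean and 1 for the P301L mean. Over all cells the median position was 0.60 for P301L replicate 1 (884 genes), 0.97 for P301L replicate 2 (63 genes) and 0.67 for P301L replicate 3 (561 genes). The rTta animals stood at 0.08 (169 genes), 0.07 (88 genes) and 0.26 (374 genes). Without the shared barcodes P301L replicate 3 stood at 0.97, and the shared barcodes taken alone under its label stood at -0.03. The same barcodes remained in rTta replicate 3, which helped to call these genes and to set 0, so that position is not independent. Taken alone under the label of rTta replicate 3, they stood at 0.32, with P301L replicate 3 likewise holding them. By class, P301L replicate 3 moved from 0.27 to 0.76 in excitatory neurons, from 0.20 to 0.59 in astrocytes, from 0.53 to 0.71 in oligodendrocytes, from 0.49 to 0.70 in precursors, from 0.51 to 0.71 in microglia and from 0.73 to 0.88 in endothelial cells when the shared barcodes were left out. The number of genes differs between animals because each set was called without that animal.

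**Figure D5:**
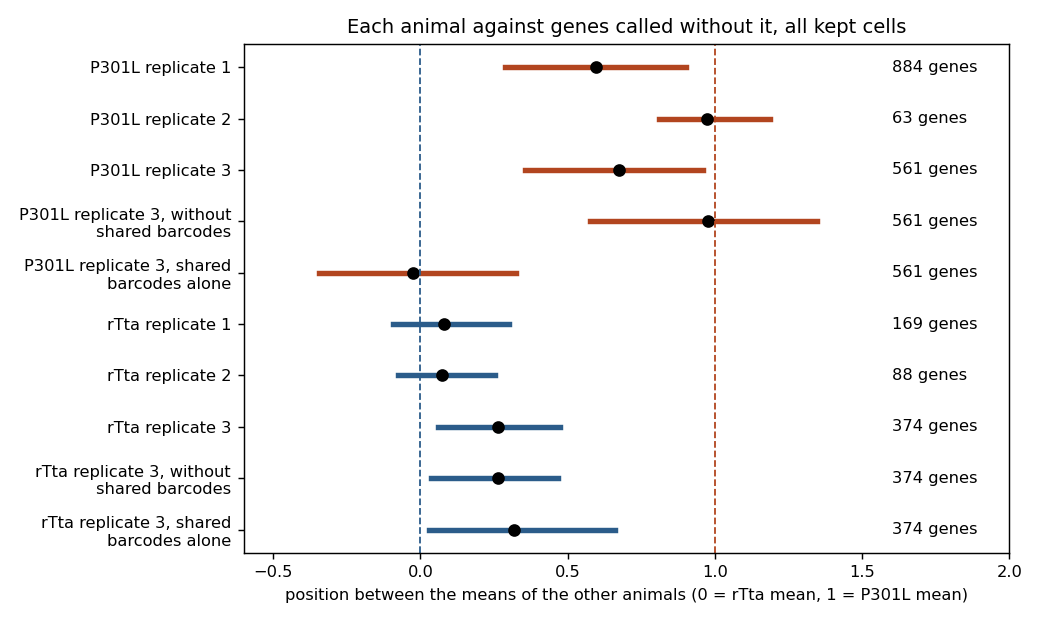
Position of each animal over genes called without it, all kept cells, between the mean of the other rTta animals (0) and that of the other P301L animals (1). Dots are medians over the genes, bars their quartiles, and the number of genes stands at the right. The shared barcodes of P301L replicate 3 taken alone lie at -0.03 and its other cells at 0.97. The same barcodes are held by rTta replicate 3, which helps to set 0.

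The 5 old WT animals carry neither name, but were counted in another part of the merged table and in other libraries, so that their levels are a description. Of 516 genes called over all cells and counted in WT, the WT mean was nearer to the P301L mean for 156 and nearer to the rTta mean for 360. Within classes the WT mean was nearer to P301L for 71 of 116 genes in oligodendrocytes, 31 of 52 in endothelial cells, 23 of 42 in excitatory neurons and 8 of 9 in astrocytes. It was nearer to rTta for 60 of 100 in microglia, 10 of 19 in precursors and 4 of 5 in mural cells, where the WT mean came from 3 animals. Over all cells the old WT animals stood at 3.84 to 13.5 CPM for Pttg1 and 8.96 to 26.4 CPM for Fcrls, below every rTta animal.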

How the data were processed

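Drop-seq counts of 6 animals were read from 1 table of 13685 genes and 30500 barcodes that the authors deposited; its values are counts, whole numbers, with no normalization. Demultiplexing with bcl2fastq 2.18.0.12, alignment with STAR, given as version 2.2, and build mm10 are stated per the submitters' processing notes. The counting tool, the annotation, the treatment of reads that match several copies and any filter are not given in the sources used here. Of the genes, 12614 had counts in all 22 animals, 801 in these 6 alone and 270 in the other 16 alone, so the table holds 2 merged parts. Mitochondrial prefixes were absent from its gene names. Gene positions are from GENCODE release M21.

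The members and gene lists were chosen with earlier results of these data known, and the alternatives without shared barcodes and without single clusters were added after the data had been seen. Cells of all 22 animals with at least 300 counts were clustered with scanpy 1.11.5 (anndata 0.12.19, Python 3.11.15) on genes counted in all: counts scaled to 10000 per cell, 2000 variable genes, 40 principal components, 15 neighbours and Leiden resolution 1 gave 26 clusters. A cluster was named when at least 3 markers stood 2-fold above the others after 20 CPM was added. Details of this rule, and which clusters stayed unnamed, were decided with the clusters in view. Counts were summed per animal, and per class with at least 20 cells. Groups were compared with edgeR 4.0.16 (TMM, filterByExpr, robust quasi-likelihood test) in R 4.3.3, with Benjamini-Hochberg adjustment within a fit and a threshold of 0.05. CPM values are relative to the summed counts of an animal or class. Nothing says that replicates were processed on separate days. The p-values measure the spread between the libraries of these animals and do not cover a difference in processing between the groups. In the main fits that spread includes the barcodes shared by replicate 3 of both groups, so those libraries are not independent. Ratios with 3 or fewer counts in 1 group carry exact 95% intervals for counting error alone.

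Named genes are the 12 largest called changes each way over all cells (at least 20 CPM), 4 each way per class (at least 50 CPM), called list members up to 6, the 10 most abundant of the 801 genes and transgene readouts. Genes called in 3 or more classes and those just outside a rule were added after their values were seen. Alternatives were DESeq2 1.42.0, upper quartile scaling, no filter, all 22 animals, 500 counts per cell, no minimum, other clusters and each animal left out. Tested on simulated data, the fit called 98% of 99 genes with a log2 change of 2 over all cells (11609 genes), 98.9% in microglia (2926 genes) and 97.9% in excitatory neurons (7590 genes), and 66, 43.5 and 49% of those with a change of 1. False calls were 7, 7 and 2 in the same order. The simulation gave genes of like level a common spread and had no animal that departed from its group. It therefore does not measure how often genes with a wider spread between animals are called. Some genes, and a list that depends on them, are not reported here.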

Additional observations from a re-analysis of the deposited data

Results flagged for a closer look

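Of the genes called in both directions, 3 had every animal of a group on opposite sides in different classes. Egr1 was higher in P301L in oligodendrocytes, oligodendrocyte precursors and endothelial cells and lower in microglia, so that its log2 change differed from that in microglia by 1.95, 2.33 and 2.25. Junb was higher in oligodendrocytes and lower in microglia, a difference of 2.29. Gatm was higher in microglia and lower in oligodendrocytes, a difference of 3.52. The difference between classes was itself not tested for any of these 5 pairs, and the classes come from the same animals. Without the microglial cluster led by cytokine genes, Egr1 stood at -0.16 and Junb at -0.32 in microglia, neither called, and Gatm at 2.70, called. That cluster was formed from expression in the same cells, so its removal can itself shrink such differences.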

How the results depend on the processing

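Calls are given as the number at an adjusted p under 0.05. Over all cells (529), the fit of all 22 animals called 16, and leaving out 1 animal gave 63 to 884. Excitatory neurons (43) had 23 with DESeq2, 136 with no filter, 9 with all 22 animals, 20 with clusters of the 6 animals, 175 without shared barcodes, 27 without the cluster of low counts, and 0 to 189 with 1 animal left out (763 at an unadjusted p under 0.05 where edgeR called 0). Astrocytes (9) had 52 with no filter, 50 without shared barcodes, and 3 to 58 with 1 animal left out. Oligodendrocytes (125) had 67 with DESeq2, 32 with all 22 animals and 55 to 234 with 1 left out, and precursors (20) 7, 3 and 10 to 31. Microglia (102) had 55 with DESeq2, 20 with all 22 animals, 54 without the cytokine-led cluster (of 1443 tested, against 2926) and 50 to 164 with 1 left out. Endothelial cells (52) had 1 with all 22 animals and 21 to 60 with 1 left out. Mural cells (5) had 1 with DESeq2, 2 with clusters of the 6 animals, 2 to 14 with 1 left out and 0 with all 22 animals (edgeR, 69 at an unadjusted p under 0.05). The genes counted in these 6 animals alone (7) had 3 with DESeq2, 11 with upper quartile scaling, 16 with no filter, 4 at 500 counts, 13 without shared barcodes and 1 to 14 with 1 left out.

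Of 211 called pairs of a named gene and a fit (all cells or a class), 31 kept their call under every alternative run for them and none changed sign. The call was lost for 162 of 207 with all 22 animals, 50 of 206 with DESeq2 and 4 of 209 without shared barcodes; the cause was not tested. Shares of cells changed sign for astrocytes (-0.24 points at 500 counts, -1.05 over named cells, -0.29 with clusters of the 6 animals, -0.22 without shared barcodes, -0.81 to 0.81 with 1 animal left out), precursors (-0.50 over named cells, -0.042 with clusters of the 6 animals, -0.60 to 1.25 with 1 left out) and mural cells (-0.044 at 500 counts). Some genes that were never called changed sign as well. Mapt over all cells was at 0.0036 with DESeq2, 0.033 with upper quartile scaling, 0.020 with all 22 animals, 0.046 at 500 counts, 0.025 with no minimum, 0.031 without shared barcodes and -0.11 to 0.057 with 1 animal left out. Ptprn2 was at 0.021 with upper quartile scaling, 0.068 at 500 counts and -0.46 to 0.23 with 1 left out. Pik3cg was at -0.20 at 500 counts and -0.20 to 0.15 with 1 left out, and Lyz2 at 0.0045 with DESeq2 and -1.21 to 0.37 with 1 left out. With 1 left out, Prnp ranged from -0.15 to 0.0048, Fcgr2b from -0.75 to 0.068 and H2-Aa from -0.041 to 1.51, and in excitatory neurons Esyt2 from -0.11 to 0.67 and Ptprn2 from -0.10 to 0.31. No paired analysis was possible because the labels give no replicate numbers.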
